A study of Mus musculus with 30 samples.

Results

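The 6 genes Cyp4f18, Rgs2, Jdp2, Atp11b, St3gal6 and Ublcp1 were higher in mouse blood leukocytes 2 days after cyclophosphamide than in untreated blood, and lower than untreated at day 5. They were selected on those comparisons. Of the 6515 array features tested, 10 were called higher at day 2 and lower at day 5 (0.153%), and these were the 6 genes, Slc40a1 and 3 probes without a gene symbol. Each of the 6 genes had 1 probe, with a value in 15 of 15 samples, so all 6 passed the filter on missing values.

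The series asks how transcripts of circulating leukocytes change after cyclophosphamide, an alkylating drug that kills dividing blood cell precursors. Leukocytes came from DBA/2 mice, an inbred strain. There were 4 untreated samples, and 4, 4 and 3 samples taken 1, 2 and 5 days after 83 mg/kg of the drug by intraperitoneal injection, independently harvested per the labels. Each blood RNA was labelled with Cy5 and measured against bone marrow RNA in Cy3, in 2 technical replicates. Untreated mice are described as untreated, with no injection of vehicle named. One label calls the marrow reference a pool of untreated cells, while its treatment field names 83 mg/kg cyclophosphamide. A reference that stayed the same cancels in every difference between groups.

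The values below are log2 ratios of blood over marrow, and a log2 change is 1 group mean minus another, with its standard error (SE) from the limma fit across all features. A feature was called at a Benjamini-Hochberg adjusted p under 0.05. The columns were centred near 0, with medians between -0.0028 and 0.025, so a ratio gives a share relative to the other transcripts and no absolute amount. Because the probes carry different marrow levels, levels are compared only within a gene. In bulk blood, fewer cells of a type and less RNA per cell cannot be told apart. The median correlation between samples of a group was 0.818 in untreated blood, 0.914 at day 1, 0.812 at day 2 and 0.801 at day 5, with the lowest day 5 pair at 0.675.

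The 6 genes have different roles. Cyp4f18 is a cytochrome P450 that hydroxylates and thereby inactivates leukotriene B4, a lipid that attracts neutrophils. Rgs2 speeds GTP hydrolysis on G protein alpha subunits and so shortens receptor signalling, and Jdp2 is a bZIP protein that pairs with Jun and represses AP-1 targets. Atp11b belongs to the P4-type ATPases, which move phospholipids to the cytoplasmic side of membranes. St3gal6 adds sialic acid to glycans, among them ligands for selectins, the adhesion molecules that leukocytes roll on. Ublcp1 is a phosphatase with a ubiquitin-like domain that acts on the proteasome.

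The 6 genes share their direction at days 2 and 5 because they were selected for it, and the letters before their start sites were read as a description. RefSeq (GRCm38.p6) lists 9 starts for them, 3 for Jdp2, 2 for St3gal6 and 1 for each of the others. The 250 bases before each start were searched on both strands. The 3 promoters shown are those of the gene with the widest swing, Cyp4f18, of Rgs2, which carried the most kinds of capitalised match, and of Atp11b, which was already higher at day 1. Capitals mark the GC box GGGCGG, the CCAAT box CCAAT and the cAMP response element core TGACG, or their reverse complements, and neighbouring matches may share letters.
Cyp4f18, chr8:72009627-72009876, minus strand: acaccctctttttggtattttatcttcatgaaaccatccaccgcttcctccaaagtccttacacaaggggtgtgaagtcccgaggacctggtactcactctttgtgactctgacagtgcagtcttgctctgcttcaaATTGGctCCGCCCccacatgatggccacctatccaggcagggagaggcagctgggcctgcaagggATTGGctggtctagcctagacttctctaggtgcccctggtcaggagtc
Rgs2, chr1:144004150-144004399, minus strand: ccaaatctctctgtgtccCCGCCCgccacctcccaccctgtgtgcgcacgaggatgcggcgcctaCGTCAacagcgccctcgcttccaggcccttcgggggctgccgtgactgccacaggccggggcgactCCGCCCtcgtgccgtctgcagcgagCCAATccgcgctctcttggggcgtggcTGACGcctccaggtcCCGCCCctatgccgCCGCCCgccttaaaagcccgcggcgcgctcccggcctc
Atp11b, chr3:35753813-35754062, plus strand: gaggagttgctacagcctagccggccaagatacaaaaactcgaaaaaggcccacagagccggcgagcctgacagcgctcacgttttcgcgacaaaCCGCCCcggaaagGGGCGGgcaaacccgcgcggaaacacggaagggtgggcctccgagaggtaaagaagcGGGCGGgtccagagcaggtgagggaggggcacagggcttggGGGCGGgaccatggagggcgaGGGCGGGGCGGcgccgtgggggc

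The Cyp4f18 window had a GC content of 54% with 1 GC box and 2 CCAAT boxes. The Rgs2 window had 72.4% GC, 4 GC boxes, 1 CCAAT box and 2 cAMP response element cores, and the Atp11b window 67.6% GC and 6 GC boxes. Over the 9 starts, the GC box was in 6, from 5 genes, and in 32.7% of all 32851 promoters of this length. The CCAAT box was in 3 starts against 33.8% of all promoters, and the cAMP response element core in 3 against 17.8%. None of the 18 motifs searched was found for all 6 genes.

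The other 15 motifs gave few matches. The AP-1 element TGACTCA, which Jdp2 binds with its partners, was in 0 of the 9 windows and in 4.46% of all promoters, and the full cAMP response element TGACGTCA in 0 against 1.55%. The variant TACGTCA was in 1 window, that of Rgs2, against 1.08%, and overlaps a TGACG core there. The ETS-type CCGGAA was in 1 window, that of Atp11b (12% of all), the PU.1-type GAGGAA in 2 (23.3%) and the RUNX motif TGTGGT in 1 (14%). The remaining 9 were in 0 windows: C/EBP-type TTGCNNAA (9.56% of all), TATAAA (12.4%), CACGTG (6.02%), TTCNNNGAA (7.02%), TTCCNGGAA (0.913%), and 1 consensus of 10 or 11 letters each for NRF1 (0.782%), YY1 (0.207%), NF-kB (0.14%) and the interferon-stimulated response element (2.98%). A match or its absence describes these letters only.

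**Figure D1:**
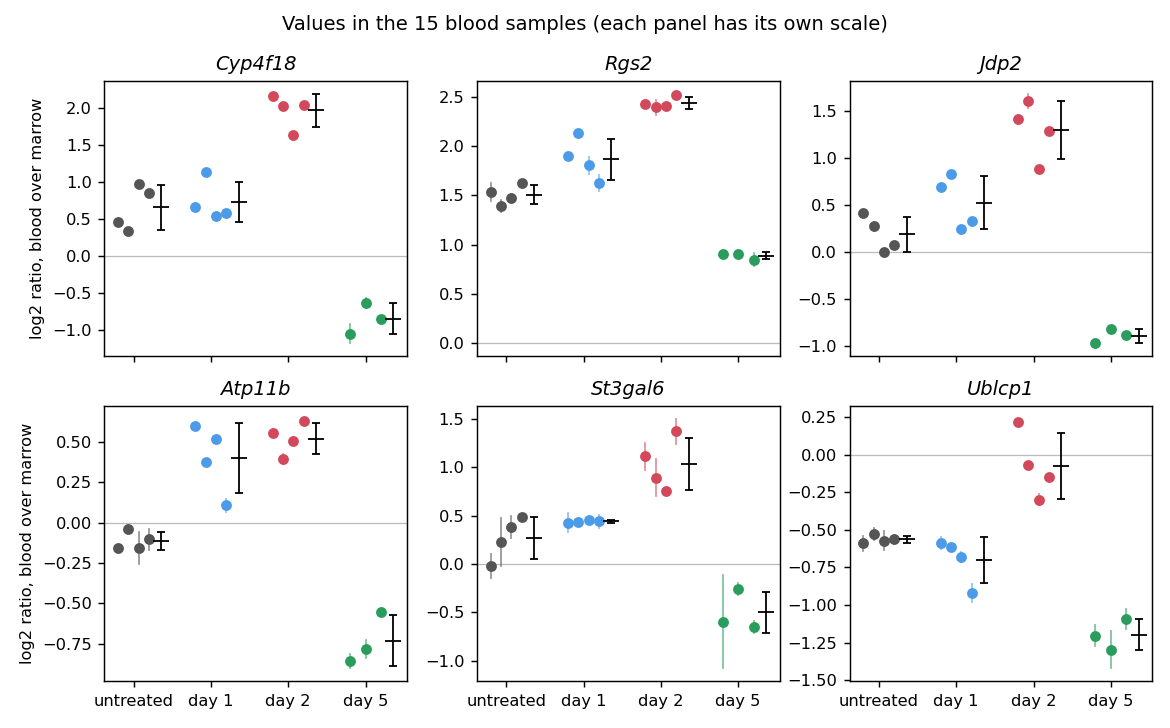
Log2 ratio of blood over marrow (vertical axis) for each of the 6 genes in the 15 samples, grouped as untreated, day 1, day 2 and day 5; points are samples, thin lines join the technical replicates, and black bars give the group mean ± SD. Every panel has its own scale, and in each one all day 2 points lie above and all day 5 points below the untreated points.

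Cyp4f18 had the widest swing of the 6 genes. Its log2 ratios were 0.45, 0.34, 0.97 and 0.85 in untreated samples and 0.66, 1.13, 0.54 and 0.58 at day 1. These groups overlapped, and the untreated samples lay in a lower and a higher pair. At day 2 the ratios were 2.16, 2.03, 1.64 and 2.05, and at day 5 they were -1.06, -0.64 and -0.86. All day 2 samples lay above, and all day 5 samples below, every untreated and day 1 sample. The mean was 0.65 ± 0.31 (SD, n = 4) in untreated blood, 0.73 ± 0.27 (n = 4) at day 1, 1.97 ± 0.23 (n = 4) at day 2 and -0.85 ± 0.21 (n = 3) at day 5. Against untreated, the log2 change was 1.32 ± 0.17 (SE) at day 2, or 2.49-fold higher, and -1.50 ± 0.19 at day 5, or 2.84-fold lower. Day 5 was 7.06-fold below day 2.

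Rgs2 varied little within the day 2 and day 5 groups. Its ratios were 1.53, 1.39, 1.47 and 1.62 in untreated samples and 1.90, 2.13, 1.80 and 1.62 at day 1. The lowest day 1 sample exceeded the highest untreated one by only 0.00093. At day 2 they were 2.42, 2.39, 2.40 and 2.52, and at day 5 0.91, 0.90 and 0.85. The day 2 samples lay above all others and the day 5 samples below all others. The mean moved from 1.50 ± 0.097 (SD, n = 4) in untreated blood through 1.86 ± 0.21 (n = 4) at day 1 to 2.43 ± 0.060 (n = 4) at day 2, and stood at 0.89 ± 0.034 (n = 3) at day 5. The log2 change from untreated was 0.93 ± 0.11 (SE) at day 2 and -0.62 ± 0.12 at day 5, 1.91-fold higher and 1.53-fold lower. This balance depended on the scaling: after quantile normalization the changes were 0.52 and -0.998.

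Jdp2 resembled Cyp4f18 in its large swing. The ratios were 0.42, 0.27, 0.00 and 0.08 in untreated samples and 0.69, 0.83, 0.25 and 0.34 at day 1. The day 1 samples formed a higher and a lower pair, and the lower pair overlapped the untreated range. At day 2 the ratios were 1.41, 1.61, 0.89 and 1.29, and at day 5 -0.96, -0.82 and -0.88. The third day 2 sample was only 0.060 above the highest day 1 sample, while the day 5 samples lay close together below all others. Group means were 0.19 ± 0.19 (SD, n = 4), 0.53 ± 0.28 (n = 4), 1.30 ± 0.30 (n = 4) and -0.89 ± 0.073 (n = 3) in order of time. The log2 change was 1.11 ± 0.16 (SE) at day 2 and -1.08 ± 0.18 at day 5, 2.15-fold higher and 2.11-fold lower than untreated.

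Atp11b was the gene whose day 1 and day 2 samples overlapped. Its ratios were -0.16, -0.04, -0.15 and -0.10 in untreated samples and 0.60, 0.38, 0.52 and 0.11 at day 1. All 4 day 1 samples were above the untreated ones, with a gap of 0.15 between the nearest samples. Day 2 gave 0.56, 0.39, 0.50 and 0.63, and day 5 gave -0.86, -0.78 and -0.56. Means were -0.11 ± 0.055 (SD, n = 4), 0.40 ± 0.22 (n = 4), 0.52 ± 0.098 (n = 4) and -0.73 ± 0.16 (n = 3). The log2 change was 0.63 ± 0.11 (SE) at day 2 and -0.62 ± 0.12 at day 5, near equal in size and opposite in sign. The day 2 mean differed from that of day 1 by 0.12.

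St3gal6 had the least precise probe. The ratios were -0.02, 0.23, 0.38 and 0.49 in untreated samples and 0.43, 0.44, 0.46 and 0.44 at day 1. The day 1 samples were nearly identical and lay within the upper part of the untreated range. At day 2 the ratios were 1.11, 0.89, 0.75 and 1.37, and at day 5 -0.60, -0.26 and -0.65. Day 2 samples were above, and day 5 samples below, all untreated samples. Means were 0.27 ± 0.22 (SD, n = 4), 0.44 ± 0.012 (n = 4), 1.03 ± 0.27 (n = 4) and -0.50 ± 0.21 (n = 3), and the log2 change was 0.76 ± 0.14 (SE) at day 2 and -0.77 ± 0.16 at day 5. Technical replicates differed by a median of 0.21 and by up to 0.96 in day 5 replicate 1, whereas the other 5 genes had medians of 0.034 to 0.080 and no difference above 0.26. Untreated replicate 4 had a single technical value.

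Ublcp1 made the smallest excursion. Its ratios were -0.59, -0.53, -0.57 and -0.56 in untreated samples and -0.59, -0.61, -0.68 and -0.92 at day 1. Day 1 replicate 4 was the lowest, and the groups overlapped by 0.0030 between the nearest samples. At day 2 the ratios were 0.22, -0.07, -0.30 and -0.15, and at day 5 -1.20, -1.30 and -1.09. The untreated samples were tight, and the day 2 samples spread over about as wide a range as the distance from untreated. Means were -0.56 ± 0.025 (SD, n = 4), -0.70 ± 0.15 (n = 4), -0.075 ± 0.22 (n = 4) and -1.20 ± 0.10 (n = 3). The log2 change was 0.49 ± 0.12 (SE) at day 2 and -0.63 ± 0.13 at day 5, so the difference between days 2 and 5, -1.12, was the smallest among the 6 genes.

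For all 6 genes every day 2 sample was above every untreated sample, which held for 12.6% of the 4920 features with values in all 15 samples, and every day 5 sample was below every untreated sample, which held for 7.4%. Among all tested features, 12.7% were called at day 2 and 4.83% were called higher there, while 1.09% were called at day 5 and 0.829% were called lower there. At day 5 against day 2, a comparison in which 25.5% of features were called, all 6 genes were lower, by 1.12 to 2.82 on the log2 scale. These shares are given as the background of the selection, and nothing further is read from the 6 counts. Samples within a group did not differ alike for all genes: day 2 replicate 3 was the lowest day 2 sample for 4 of the 6 genes, and day 2 replicate 4 the highest for 3.

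Day 1 against untreated was not used in the selection, although it shares the untreated samples with it. The fit also took 1 spread per feature over all 4 groups, so day 1 samples entered the standard errors at days 2 and 5. The day 1 test is therefore not independent of the calls at those days. Of the 6 genes, 1 passed the test, Atp11b, against 300 of 6515 features (4.6%). Atp11b rose by a log2 change of 0.51 ± 0.11 (SE, adjusted p = 0.0232 in limma, n = 4 and 4), 1.43-fold, with 4 of 4 day 1 samples above all untreated samples. This call was lost without untreated replicate 1, 3 or 4 or day 1 replicate 1 or 2, where the change was 0.45 to 0.52 and the adjusted p 0.0512 to 0.0961.

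The other 5 genes did not pass the day 1 test. For Rgs2 the day 1 change was 0.36 ± 0.11 on the log2 scale (SE, adjusted p = 0.0657 in limma), which became -0.15 after quantile normalization, so that its direction at day 1 depended on the scaling. Jdp2 had 0.33 ± 0.16 (adjusted p = 0.255, limma) and St3gal6 0.17 ± 0.14 (adjusted p = 0.538, limma). For St3gal6 the change was 0.40 from technical replicate 1 alone and 0.06 from technical replicate 2 alone. Cyp4f18 had 0.07 ± 0.17 (adjusted p = 0.856, limma) and Ublcp1 -0.14 ± 0.12 (adjusted p = 0.542, limma). Day 1 and untreated samples did not overlap for 2 of the 6 genes, Atp11b and Rgs2, and for 20.4% of the features with complete values.

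**Figure D2:**
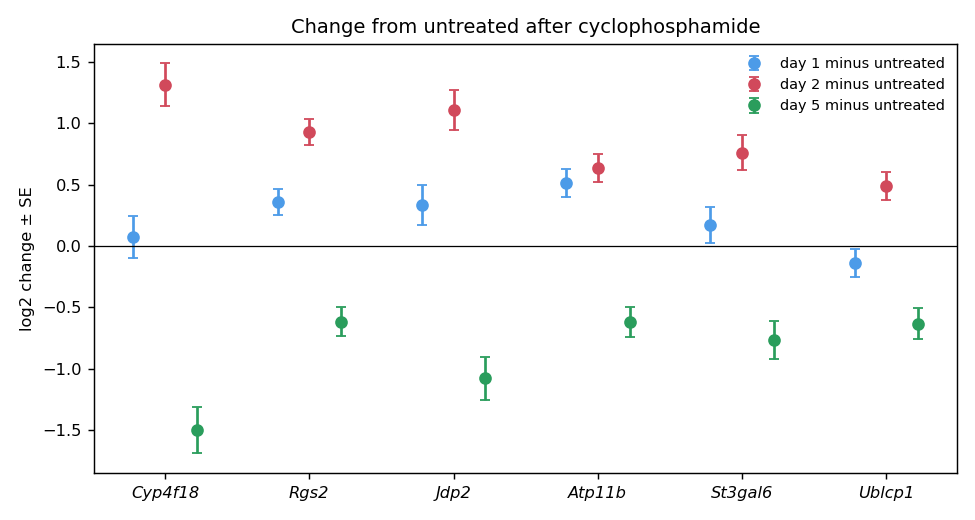
Log2 change from untreated with its standard error (vertical axis) for each gene at day 1, day 2 and day 5. Day 1 changes lie between -0.14 and 0.51, day 2 changes between 0.49 and 1.32, and day 5 changes between -1.50 and -0.62.

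The threshold set the membership for several genes. Just inside it at day 5, Atp11b and St3gal6 had an adjusted p of 0.0207, Ublcp1 one of 0.0184 and Rgs2 one of 0.0139 (limma). At day 2, Ublcp1 had an adjusted p of 0.0112 (limma). Just outside it, and named here after their values were seen, were Il1rn, the interleukin-1 receptor antagonist, with log2 changes of 1.32 at day 2 and -1.16 at day 5 (day 5 adjusted p = 0.0551, limma), and Txn1, thioredoxin, with 1.00 and -0.67 (0.0596). Zbtb48 missed the day 5 threshold as well (adjusted p = 0.0882, limma). Pilrb1 with 0.38 and -0.77 (day 2 adjusted p = 0.0660, limma) and Acin1 with 0.28 and -0.65 (0.0839) missed the day 2 threshold. The seventh named feature inside the threshold, Slc40a1, the iron exporter ferroportin, had log2 changes of 0.45 at day 1, 2.07 at day 2 and -1.73 at day 5.

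Which named features lay closest to each gene was measured as the root mean square difference over the 15 samples after each feature's untreated mean was subtracted, among 3561 named features with complete values. Small day changes make a small distance easier to reach, so each value is given beside the median distance to all these features. Closest to Cyp4f18 were Il1rn (0.29), Jdp2 (0.35) and Csf3r (0.47), the receptor for the neutrophil growth factor G-CSF, against a median of 0.99. Closest to Jdp2 were Txn1 (0.28), Rgs2 (0.29) and Cyp4f18 (0.35), against 0.80. Rgs2 had Ankrd33b, Txn1 and Atp11b, each at 0.22 against a median of 0.61. St3gal6 had Rgs2 (0.23), Txn1 (0.24) and C5ar1 (0.27), a receptor for the complement fragment C5a, against 0.59.

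Atp11b was closest to Kmt2a (0.18), a histone methyltransferase, Slc46a1 (0.20), a folate transporter, and Smc4 (0.21), a condensin subunit, against a median of 0.54. Ublcp1 was closest to Moap1, Rmnd5b and Cherp, each at 0.17 against 0.47. Cyp4f18, Rgs2, Jdp2 and St3gal6 had another of the 6 genes among their closest 3. These distances describe likeness over days that also chose the genes, and carry no test.

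Mature neutrophil markers moved with the 6 genes at day 2. Of 19 listed markers, 14 were on the array and 8 were tested, with a median log2 change of 1.13 at day 2 against 0.059 over all features. At day 2, 0 of the 8 were called lower and 5 were called higher, against 4.83% of all features. They were S100a9, a calcium-binding protein (1.71 ± 0.37 SE, adjusted p = 0.00638), Csf3r (1.56 ± 0.21, 0.000174), Trem1, an activating receptor (1.51 ± 0.28, 0.00186), Mmp9, a granule gelatinase (1.14 ± 0.24, 0.00473), and Fpr2, a formyl peptide receptor (1.13 ± 0.20, 0.00144), all by limma. Of the other 3, Clec4e had 0.63 and Ncf1 0.16 at day 2, neither called, and Cd177, a neutrophil surface protein, had -0.62 (adjusted p = 0.0793, limma) after -1.25 at day 1 (0.00946), when it was called lower. The sample medians over the 8 markers, relative to untreated, ran from -0.14 to 0.068 in untreated blood and from 0.58 to 1.34 at day 2. Day 2 replicate 3 had the lowest of these, 0.58, and was also the sample in which 4 of the 6 genes were lowest. The other day 2 samples did not keep the same order. Replicate 2 had the highest neutrophil median, 1.34, while its median over the 6 genes was 0.75, below replicates 1 (0.88) and 4 (1.06). The part of neutrophil markers in the day 2 values of the 6 genes was not tested.

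At day 5, 7 of the 8 neutrophil markers had values below untreated, among them Trem1 (-0.90) and Csf3r (-0.68), and Mmp9 had 0.56. None of the 8 was called by limma against untreated, and the median change was -0.35. An unadjusted p under 0.05 was found for 3 of the 8, against 17.4% of all features. At day 5 against day 2, 4 of the 8 were called lower, Csf3r, S100a9, Fpr2 and Trem1, against 12.7% of all features. The median change was -1.21. Sample medians were -0.64 to 0.035 at day 5, against -0.14 to 0.068 in untreated blood. The median over the 6 genes was -0.80, -0.70 and -0.79 in the 3 day 5 samples, and 0.88, 0.75, 0.66 and 1.06 in the 4 day 2 samples. At day 5 replicate 3 the neutrophil median was 0.035 while the median over the 6 genes was -0.79. The difference between the marker list and the 6 genes was not tested.

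**Figure D3:**
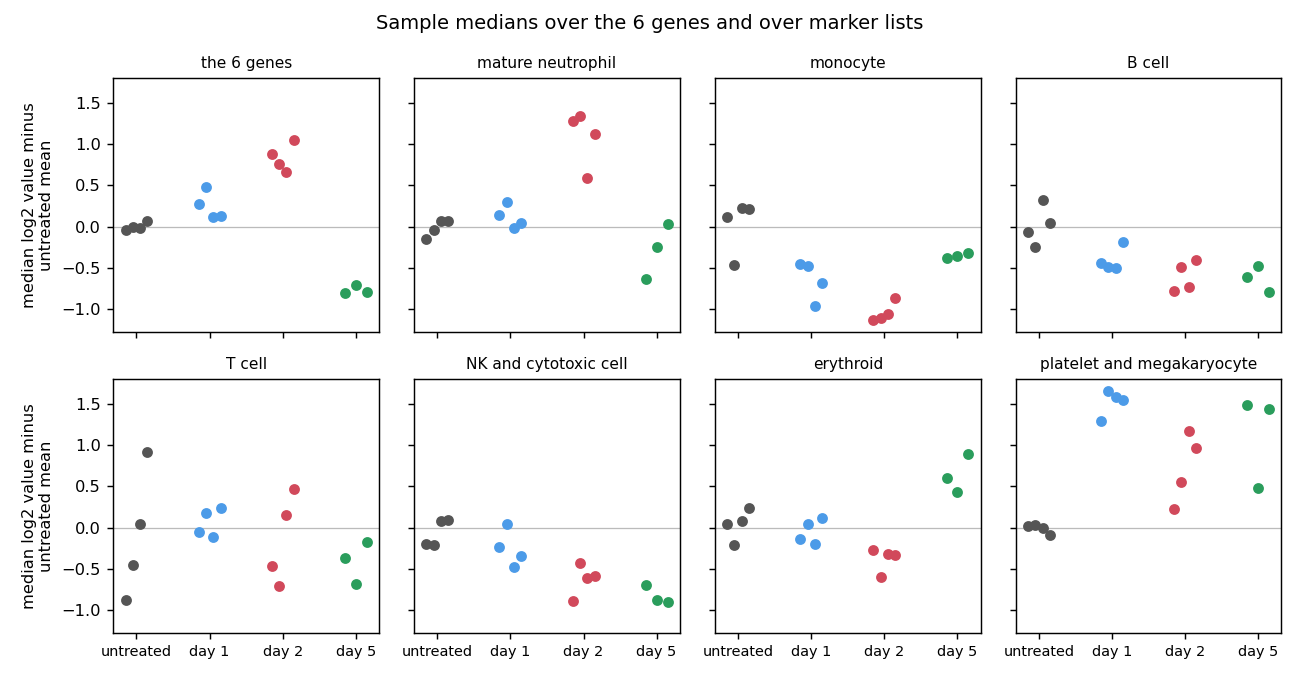
Median log2 value relative to the untreated mean (vertical axis) in each of the 15 samples, over the 6 genes and over 7 lists of cell type markers; points are samples. At day 2 the neutrophil markers and the 6 genes are both above untreated, while at day 5 the 6 genes lie at -0.80 to -0.70 and the neutrophil markers at -0.64 to 0.035.

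Markers of other blood cells took other courses. Over all features, 7.84% were called lower at day 2 and 0.829% at day 5, as background for the counts that follow. Among 7 tested monocyte markers of 14 listed, 6 were called lower at day 2 and 0 were called at day 5 by limma. At day 5, 4 had an unadjusted p under 0.05, against 17.4% of all features. Of the 7, 0 had a positive change at day 2 and 2 at day 5. Sample medians were -1.13 to -0.87 at day 2 and -0.37 to -0.32 at day 5. Among 6 tested B cell markers of 12 listed, 2 were called lower at day 2 and 3 at day 5, while 1 and 3 had a positive change. Sample medians were -0.78 to -0.41 and -0.78 to -0.48. Of 5 tested NK and cytotoxic cell markers out of 11, 2 were called lower at each of these days, and 0 had a positive change on either. Their sample medians were -0.88 to -0.42 and -0.90 to -0.69. The B cell list was mixed at day 5: Ms4a1, Cd22 and Fcmr were called lower. Cd72 had 0.44 ± 0.39 (SE), Blnk 0.09 ± 0.32 and Fcer2a 0.07 ± 0.15, none of them called. At day 5 against day 2, 2 were called higher and 3 lower, against 12.8% and 12.7% of all features. Cd72 and Fcer2a were higher by 1.81 (adjusted p = 0.00305, limma) and 0.49 (0.0268). Lower were Ms4a1 (-0.90, adjusted p = 0.0127, limma), Fcmr (-0.79, 0.0030) and Cd22 (-0.61, 0.0444).

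Erythroid markers had sample medians of -0.60 to -0.27 at day 2 and 0.43 to 0.89 at day 5, but the members had values of both signs. Of 5 tested erythroid markers out of 11, 2 were called lower at day 2, against 7.84% of all features. These 2 were Alas2 (-2.83) and Bnip3l (-0.60). Hba-a1 had -0.32 ± 0.13 (SE), Ermap 0.48 ± 0.34 and Klf1, with 11 values, 1.31 ± 0.90, none of which was called. At day 5 Hba-a1 had -0.13 and the other 4 were positive, and 0 were called at day 5 by limma. At that day 2 of the 5 had an unadjusted p under 0.05, against 17.4% of all features. Platelet markers (5 tested of 12) had sample medians of 1.29 to 1.65 at day 1, 0.23 to 1.17 at day 2 and 0.48 to 1.49 at day 5. By limma, 3 of the 5 were called higher at day 1, 0 at day 2 and 1, F2rl2 (1.42), at day 5. Over all features, 2.29%, 4.83% and 0.261% were called higher on these days. At each of days 2 and 5, 3 platelet markers had an unadjusted p under 0.05, against 26.7% and 17.4% of all features. T cell markers (3 tested of 13) had sample medians of -0.88 to 0.92 in untreated blood alone, -0.71 to 0.47 at day 2 and -0.68 to -0.17 at day 5. Of these, Cd4, the helper T cell coreceptor, rose by 0.53 at day 2 (adjusted p = 0.0421, limma), had -0.05 at day 5, and was lower at day 5 than at day 2 (-0.58, adjusted p = 0.0224), while Cd8b1 had -0.47 and Lat -0.67 at day 2. The part of any of these cell types in the 6 genes was not tested, and the markers carry ratios to marrow, so no marker has a level of 0 here.

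The relatives of each gene were taken from 7 lists of its enzyme class, pathway or target. Together the lists held 71 other tested genes, of which 2 were called at day 1 (2.82%, against 4.6% of all features), 6 at day 2 (8.45%, against 12.7%) and 0 at day 5 (against 1.09%). At day 5, 14 of the 71 had an unadjusted p under 0.05 in limma, as had 17.4% of all features. At day 5 against day 2, 5 of the 71 were called higher and 4 lower (12.7%, against 25.5% of all features). The 5 called higher were Eya3 (1.11), Fut7 (0.84), Psme4 (0.56), Fosl1 (0.47) and Atp11a (0.33). The 4 called lower, as the 6 genes were, were Gnai3 (-0.94), Ssu72 (-0.62), Abca1 (-0.54) and Eya1 (-0.40). Median log2 changes over the 71 were -0.011, 0.0091 and -0.032 at days 1, 2 and 5, against 0.032, 0.059 and 0.0044 over all features.

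**Figure D4:**
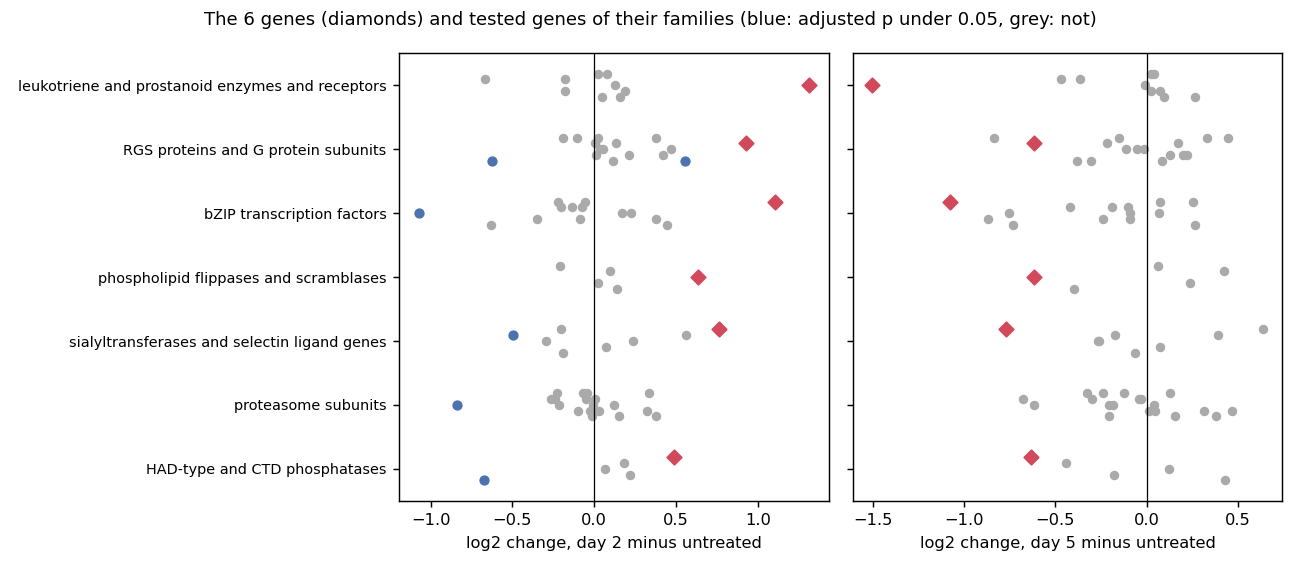
Log2 change from untreated at day 2 (left) and day 5 (right) for tested genes of 7 lists; diamonds are the 6 genes, blue points other genes with an adjusted p under 0.05 and grey points the rest. The diamonds were selected on these changes, so their place is no finding; of the other genes, 6 are blue at day 2 and 0 at day 5.

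Among 9 tested genes of leukotriene and prostanoid synthesis and reception other than Cyp4f18, 0 were called at any day against untreated by limma. The array held 22 of the 30 listed, with the gene itself, as in the counts that follow. Over all features, 4.6%, 12.7% and 1.09% were called at days 1, 2 and 5. An unadjusted p under 0.05 was found for 1, 1 and 0 of these 9 genes, against 21.1%, 26.7% and 17.4% of all features. The paralog Cyp4f14 had log2 changes of 0.23, 0.03 and 0.02 at days 1, 2 and 5. Cyp4f16 had -0.41, -0.67 (adjusted p = 0.0641, limma) and -0.47. At day 2 Cyp4f16 was below untreated where Cyp4f18 was above, and at day 5 both were below. Lta4h, which makes leukotriene B4, had -0.87, 0.16 and 0.26, and Alox5ap, which presents arachidonic acid to lipoxygenase, -0.31, -0.18 and 0.03, with none of these called.

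Among 15 tested RGS proteins and G protein subunits other than Rgs2 (31 of 37 on the array), 2 were called at day 1 and 2 at day 2. Over all features, 4.6% and 12.7% were called on these days. Rgs10, another GTPase activator, rose at day 1 by 1.19 (adjusted p = 0.0175, limma) and had 0.47 at day 2. Its day 1 call was lost in 7 of 23 alternatives, with a change of 0.43 (adjusted p = 0.33) after quantile normalization and 0.64 (0.278) from technical replicate 2 alone, against 1.72 from technical replicate 1 alone. Gng10, a gamma subunit, fell by 0.82 at day 1 (adjusted p = 0.0133, limma) and by 0.63 at day 2 (0.00979). Gnai3, an inhibitory alpha subunit, rose by 0.56 at day 2 (adjusted p = 0.0396, limma) and had -0.38 at day 5 (0.287). This rise was not called in 10 of 24 alternatives, with an adjusted p of up to 0.103. Rgs1, in the same subfamily as Rgs2, had 0.66, -0.19 and -0.84 at days 1, 2 and 5, none called. Rgs12 had 0.22 and Rgs14 had 0.08 at day 5.

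Among 13 tested bZIP factors other than Jdp2 (33 of 45 on the array), Batf3, a factor of dendritic cell development, fell by 1.07 at day 2 (adjusted p = 0.00486, limma), and no other was called against untreated. Over all features, 12.7% were called at day 2. Of the AP-1 partners that Jdp2 can pair with or oppose, Junb had -0.21 at day 2 and -0.42 at day 5, Jund 0.17 and -0.09, Fos -0.35 and -0.87, and Fosb -0.63 and -0.73. Nfil3, a repressor of the same class, had 0.38 and -0.24.

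Among 4 tested flippases, scramblases and exporters other than Atp11b (13 of 26 on the array), 0 were called against untreated at any day by limma. Over all features, 4.6%, 12.7% and 1.09% were called at days 1, 2 and 5. An unadjusted p under 0.05 was found for 0, 0 and 2 of these 4 genes, against 21.1%, 26.7% and 17.4% of all features. Atp11a, the nearest paralog tested, had log2 changes of 0.05, 0.10 and 0.43 at days 1, 2 and 5 (day 5 adjusted p = 0.0735, limma), above untreated where Atp11b was below. Abca1, a cholesterol and phospholipid exporter, had 0.14 at day 2 and -0.40 at day 5.

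Among 7 tested sialyltransferase and selectin ligand genes other than St3gal6 (28 of 32 on the array), St6gal1, which adds sialic acid in another linkage, fell by 0.49 at day 2 (adjusted p = 0.0133, limma), and no other was called against untreated. Over all features, 12.7% were called at day 2. Selplg, the P-selectin ligand on leukocytes, had 0.56 at day 2 and 0.39 at day 5, and Fut7, the fucosyltransferase that completes selectin ligands, -0.20 and 0.64. Both had positive values at day 5, where St3gal6 was below untreated. No other St3gal gene had enough values to be tested.

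For Ublcp1, 4 related phosphatases (11 of 20 on the array) and 19 proteasome subunits (36 of 42 on the array) were tested. Eya3, a phosphatase and transcriptional coactivator, fell by 0.67 at day 2 (adjusted p = 0.00715, limma) and had 0.43 at day 5, the reverse order of signs. Ssu72, which acts on RNA polymerase II, had 0.18 and -0.44. Of the proteasome subunits, Psmb10, a catalytic subunit of the immunoproteasome, fell by 0.84 at day 2 (adjusted p = 0.00939, limma). Against untreated, no subunit was called higher at day 2 or day 5, where 4.83% and 0.261% of all features were. Psme4, a proteasome activator, was higher at day 5 than at day 2 by 0.56 (adjusted p = 0.0278, limma). The median over the 19 was -0.024 at day 2 and -0.039 at day 5.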

How the data were processed

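The authors deposited 1 log2 ratio per probe and column, Cy5 (blood) over Cy3 (marrow) per the labels. The scanner, background correction, normalization and missing-value filter behind these values were not given in the sources used here, nor was the logarithm's base. It was taken as 2, and the range of the values, -4.70 to 5.76, does not settle it. If the base were e, every log2 value here would be a natural logarithm, and the fold sizes given would not hold. Arrays of 15 samples limit the precision, and 5314 to 9398 of 13443 probes had a value per column.

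Probes were named through the platform annotation (10032 with 1 symbol, 170 with several, 3241 with none). Technical replicates were averaged per probe, then probes of a symbol. Features with at least 3 of 4 values in the untreated, day 1 and day 2 groups and at least 2 of 3 at day 5 were tested, 6515 of 13027. limma 3.58.1 (R 4.3.3) was fitted to the 15 samples together, with a mean for each of the 4 groups, eBayes and Benjamini-Hochberg adjustment over all tested features. The procedure was tested on simulated data.

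The 6 genes and the gene lists were chosen with earlier results of these data known, and the motifs after the promoters had been looked at. Genes named besides the 6 were the 3 closest features of each, other named features with the called pattern, family genes called against untreated (at most 4 per list and comparison) and close paralogs; other relatives and markers named with values were chosen after their values were seen. No coordinates are given for probes, whose build is not named here. Alternatives changed the scaling, filter, technical replicates, probe averaging, variance prior, samples in the fit and a replicate block.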

Additional observations from a re-analysis of the deposited data

How the results depend on the processing

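The arrays' number and the missing values limit these results. Each choice was changed in turn, in 10 alternatives plus 15 fits that left out 1 sample. Day 2, day 5 and day 5 against day 2 changes of the 6 genes kept their signs throughout. The genes were selected on the day 2 and day 5 changes, so kept signs or calls in these are a description and no support. Changing the filter or the variance prior could not move these estimates. For Rgs2, quantile normalization moved them to 0.52 at day 2 and -0.998 at day 5, and reversed its day 1 change to -0.15; complete features alone and the random effect for samples left that change at 0.36 but called it (adjusted p = 0.0476 and 0.00885, limma). For Cyp4f18 the day 1 change was -0.0054 under quantile normalization, -0.033 without untreated replicate 2 and -0.061 without day 1 replicate 2, within -0.061 to 0.18 over the samples left out. Features called at day 1 were 715 with the random effect, 578 with only the 2 groups compared, 462 after quantile normalization (182 higher and 280 lower, against 149 and 151) and 60 to 438 with 1 sample left out. At day 2, leaving out 1 sample gave 529 to 942. At day 5 the count was 407 with the random effect, 116 for complete features, 111 after quantile normalization, 34 with only the 2 groups compared and 27 to 224 with 1 sample left out. At day 5 against day 2 it was 935 with only the 2 groups compared. The pattern of higher at day 2 and lower at day 5 was called for 64 features with the random effect and for 6 to 25 with 1 sample left out, 6 without untreated replicate 4 or day 5 replicate 1 and 25 without day 5 replicate 3. Cyp4f18 and Jdp2 kept it in 24 of 24 alternatives that give it, Rgs2 and Ublcp1 in 20, St3gal6 in 19 and Atp11b in 18; without untreated replicate 4 or day 5 replicate 1, Cyp4f18 and Jdp2 were the 2 of the 6 genes that kept it. The Atp11b call at day 1 was lost in 5 of the fits with 1 sample left out, where its change ran from 0.45 to 0.61 over all 15. Replicate numbers did not pair the samples: deviations of same-numbered samples correlated at -0.35 to 0.22 over 21 pairs, and 4 of 15 samples correlated best with their own number. With the replicate number as a block, 131 features were called at day 1, the Atp11b change stayed at 0.51 with an adjusted p of 0.0564 (limma), and Cyp4f18, Jdp2 and Ublcp1 kept the pattern. The causes of these shifts were not tested. Of the relatives named, Rgs10 (day 1) lost its call in 7 of 23 alternatives, Gnai3 (day 2) in 10 of 24, Gng10 in 3 of 22 at day 1 and 1 of 22 at day 2, and St6gal1 (day 2) in 2 of 24; Batf3, Psmb10 and Eya3 lost theirs in none of those run.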
